A study of Mus musculus with 24 samples.

Results

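Among 203413 accessible elements of 10 primary mouse blood cell populations, 906 were called in MEP (progenitors of megakaryocytes and erythrocytes), CFUE (erythroid colony-forming cells) and ERY (erythroblasts) and in none of the other 7 populations. They were selected on the measured peaks themselves. A peak was kept where it overlapped, by 1 bp or more, a peak of the other library of its population, kept peaks were merged over the 10 populations, and each element counted as called in the populations that contributed a kept peak. Calls in the 20 primary libraries therefore describe the selection and were not tested, whereas calls in 2 cell lines, sequence and position were not used by it.

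The assay was ATAC-seq, in which a transposase inserts sequencing adapters into open chromatin, and the data were the peak lists of 24 libraries, 2 for each of 12 cell types. All primary cells came from adult C57BL6 mice. MEP, CFUE and ERY were sorted from bone marrow, as were LSK (Lin-, Sca1+, cKit+ cells, which hold the stem cells), the myeloid progenitors CMP and GMP, the megakaryocyte progenitors CFUMK and immature megakaryocytes (iMK). MON and NEU (monocytes and neutrophils) came from peripheral blood. The line G1E lacks GATA1 and is committed to the erythroid lineage, and G1E-ER4+E2 is a single G1E clone carrying GATA1 fused to a ligand-binding domain of the estrogen receptor, with estradiol (E2) present. No untreated G1E-ER4 library was among the samples, so the clone and the treatment cannot be told apart. The pair of libraries of a type may stem from different mice or from portions of cells of the same mice, and the labels do not say which. The p-values then measure the spread between libraries, which may be technical.

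Red cells arise from MEP, which also give rise to megakaryocytes, through CFUE, the progenitor that depends on erythropoietin, to erythroblasts, which fill with hemoglobin and condense their nucleus. GATA1, often bound together with TAL1 at a composite site of an E-box and a GATA motif, and KLF1, a zinc finger factor that binds CACCC boxes, are the best known activators of erythroid enhancers and promoters. GATA2 precedes GATA1 at many of the same motifs in progenitors. Megakaryocytes use GATA1 as well, and so share much of the early program with MEP.

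The following 6 elements near erythroid genes show what the sequences of the set look like. They are the best scoring ones near genes of 7 erythroid lists, 1 for each gene, after leaving out elements with a base in an annotated UTR. The sequences are of the plus strand of mm10 (RefSeq GRCm38.p6), from 5′ to 3′, and capitals mark every GATA motif on either strand, that is AGATAA or AGATAG, also with T as the first base, or the reverse complement of one of these. They come from chr2:152811341-152811553 in an intron of Bcl2l1, chr1:134078214-134078378 in an intron of Btg2, chr1:87706448-87706644 in an intron of Inpp5d, chr11:31835442-31835616 between genes 36.7 kb upstream of Cpeb4, chr8:122635932-122636167 in an intron of Cbfa2t3 and chr6:55339238-55339416 in an intron of Aqp1.
Bcl2l1: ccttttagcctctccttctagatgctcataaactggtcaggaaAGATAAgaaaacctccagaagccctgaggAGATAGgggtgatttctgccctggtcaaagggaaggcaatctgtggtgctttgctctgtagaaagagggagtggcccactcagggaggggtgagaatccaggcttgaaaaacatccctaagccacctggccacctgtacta
Btg2: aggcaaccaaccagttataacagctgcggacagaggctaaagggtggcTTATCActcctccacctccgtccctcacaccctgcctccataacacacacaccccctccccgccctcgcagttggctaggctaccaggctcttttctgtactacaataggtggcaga
Inpp5d: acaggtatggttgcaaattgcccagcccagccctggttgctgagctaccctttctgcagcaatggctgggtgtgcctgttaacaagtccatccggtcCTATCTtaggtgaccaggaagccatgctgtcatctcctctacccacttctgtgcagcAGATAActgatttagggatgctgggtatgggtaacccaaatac
Cpeb4: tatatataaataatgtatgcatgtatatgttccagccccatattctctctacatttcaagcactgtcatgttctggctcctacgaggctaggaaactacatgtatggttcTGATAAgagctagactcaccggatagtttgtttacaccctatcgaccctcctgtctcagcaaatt
Cbfa2t3: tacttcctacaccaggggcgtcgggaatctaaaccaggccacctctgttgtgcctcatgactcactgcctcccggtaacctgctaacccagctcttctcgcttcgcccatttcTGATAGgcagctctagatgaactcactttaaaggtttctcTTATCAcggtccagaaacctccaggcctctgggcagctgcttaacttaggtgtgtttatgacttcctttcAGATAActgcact
Aqp1: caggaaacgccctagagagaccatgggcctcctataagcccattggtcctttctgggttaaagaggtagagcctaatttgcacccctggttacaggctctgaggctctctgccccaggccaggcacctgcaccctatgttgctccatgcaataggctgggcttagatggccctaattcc
The first of these has 2 GATA motifs, Btg2 has 1, Inpp5d 2, Cpeb4 1 and Cbfa2t3 3. The sequence in Aqp1 holds none, as did 395 of the 906 elements in the 200 bp about their centre.

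Many of the elements lay near the edge of the selection. Of the 906 elements, 626 (69.1%) had a peak in at least 1 library of the 7 other populations. It did not count because no peak of the second library overlapped it. A peak in 1 library only was most frequent in CFUMK, with 462 elements (51.0%), followed by CMP with 176, LSK with 134, MON with 109, iMK with 81, NEU with 50 and GMP with 42. Peaks of both libraries without overlap were found at 5 elements each in CFUMK and CMP, 2 in MON and 1 each in LSK and iMK. The 2 CFUMK libraries were unequal, with a peak at 17.4% of the elements in replicate 1 and 34.7% in replicate 2. Peaks at the elements in these populations had a median score of 6.79 in CFUMK replicate 2, against 7.92 over that whole list. Their medians lay between the 28.0 and 51.9 percentile of the lists of the 14 libraries, and single ones reached 70.7 in CMP replicate 2 and 68.3 in iMK replicate 1. Just outside the selection lay 2209 elements called in MEP, CFUE, ERY and CFUMK only, 90 that added CMP alone, 44 iMK, 28 MON, 18 GMP, 13 LSK and 6 NEU. Without CFUMK replicate 1, whose absence leaves replicate 2 to call CFUMK alone, the set held 595 elements, and without MEP replicate 1 it held 1421. Of the 906 elements, 280 had no peak in any of the 14 libraries of the other populations.

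**Figure D1:**
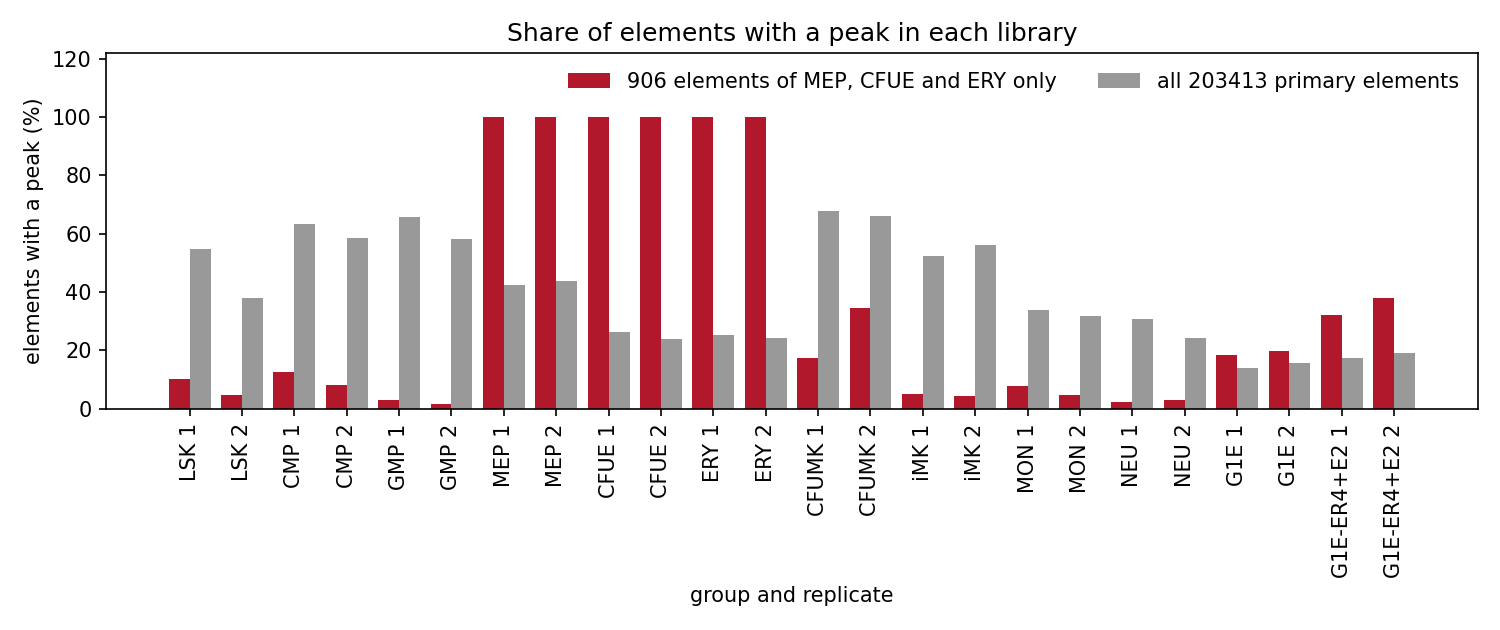
Percent of the 906 elements (red) and of all 203413 primary elements (grey) with a peak in each of the 24 libraries. The 6 libraries of MEP, CFUE and ERY stand at 100% by selection, CFUMK reaches 17.4% and 34.7%, and in the lines red stands above grey in all 4 libraries.

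Scores at these elements were read from the value that the authors deposited with each peak, a number whose unit is not stated and whose smallest values are whole multiples of a fixed step within each library. The highest peak value in the element was taken. In MEP the 906 elements had a median score of 6.98 and 7.27 in the 2 libraries, against 16.8 and 17.7 for the 28165 elements called in MEP, CFUE, ERY and at least 1 other population. Medians were 14.65 and 13.35 in CFUE, and 14.2 and 13.9 in ERY, against 20.2 to 23.7 for the shared elements. The elements of the 3 populations were therefore lower than the shared ones in all 6 libraries, with medians at the 62.0 and 58.3 percentile of all peaks in MEP and between the 69.9 and 78.3 percentile in CFUE and ERY, and with single elements reaching 202.3 in ERY and no more than 37.1 in MEP.

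To ask how these elements changed along the path from MEP to ERY, log2(score + 1) was centred in each library and fitted with limma over all 29071 elements called in the 3 populations, with 2 libraries each. From MEP to CFUE, 456 of the 906 elements (50.3%) rose and 98 (10.8%) fell at a Benjamini-Hochberg adjusted p under 0.05, while 352 did not pass. Over all elements fitted, 41.7% rose and 32.4% fell. Scores in MEP were lower at these elements than at the shared ones, as given above. Whether this limited the falls was not tested, and their rarity is not read as a property of the set. The median difference was 0.51 on the log2 scale, against 0.11 for the shared elements. Without centring, 578 rose and 29 fell (14635 and 6616 of all 29071), and with quantile normalization 613 rose and 24 fell (10803 and 9028 of all). Without centring the median of the shared elements moved to 0.45 as well. The scores of the 3 populations decided whether an element was called in them, and differences between the 3 were not used directly to choose it. The selection also required no call in the other populations, CFUMK and CMP among them. Whether this favoured elements with low scores in MEP, and so rises from MEP, was not tested. The shares that rose from MEP are therefore not read as independent of the selection.

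From CFUE to ERY, 95 of the elements rose (10.5%) and 92 fell (10.2%), where 14.3% and 9.96% of all elements fitted did so, and the median difference was -0.04 against 0.06. These counts and their balance depended on the settings. When those farther than 1 kb from any start were centred and fitted alone, 45 of 636 rose and 127 fell, with a median of -0.18 (1470 and 2092 of all 13385 such elements). With the mean instead of the highest peak value only 25 rose and 14 fell. Leaving out 1 of the 4 CFUE and ERY libraries left 48 to 58 that rose and 40 to 50 that fell. Between the ends of the path, from MEP to ERY, 453 rose (50%) and 107 fell (11.8%), against 42.5% and 31.2% of all elements fitted. The counts over the whole path were thus close to those of its first step.

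**Figure D2:**
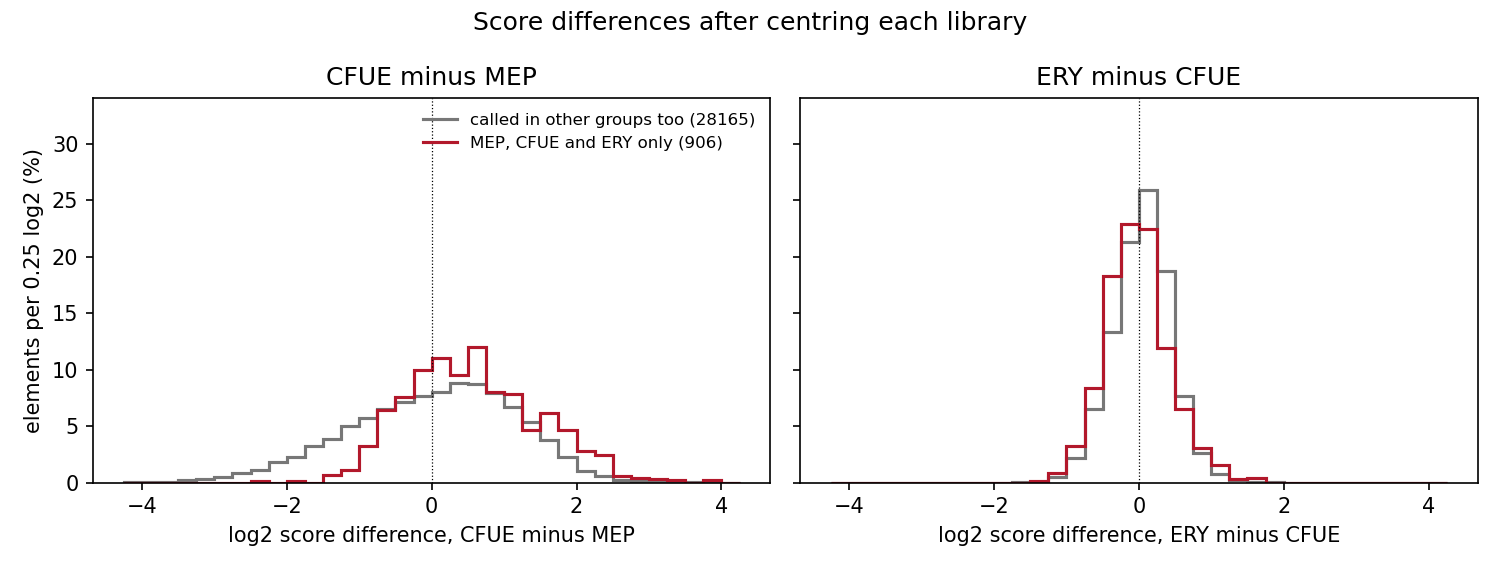
Distribution of fitted log2 score differences for CFUE minus MEP (left) and ERY minus CFUE (right), as percent of elements in steps of 0.25, for the 906 elements (red) and the 28165 elements also called in other populations (grey). The red curve lies to the right on the left panel (medians 0.51 and 0.11), and both centre near 0 on the right panel (medians -0.04 and 0.06).

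With all elements centred together, the shares that rose were similar close to and far from transcript starts, a difference that was not tested. Of the 270 elements within 1 kb of a transcript start, 134 rose from MEP to CFUE and 19 fell, with a median of 0.47. Of the 636 farther away, 322 rose and 79 fell, with a median of 0.52. When elements over 1 kb from a start were centred and fitted alone, 423 of the 636 rose and 18 fell. Their median was then 0.94, and 5315 rose and 3899 fell among all 13385 such elements. With a GATA motif 254 of 511 rose, and without it 202 of 395 did. The 280 elements with no peak in any library of the other populations included 154 that rose and 28 that fell.

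The largest rise from MEP to CFUE was at Inpp5d, which encodes SHIP1, a lipid phosphatase that limits signalling from cytokine receptors. Its element at chr1:87706448-87706644, in an intron and 2.79 kb upstream of the nearest annotated start of the gene, scored 5.29 and 3.93 in MEP, 120.8 and 97.9 in CFUE and 143.2 and 151.5 in ERY. The groups did not overlap, and no line library had a peak there. The fitted difference from MEP to CFUE was 3.96 ± 0.15 (log2, SE, limma adjusted p = 7.86e-23), with a further 0.41 ± 0.15 from CFUE to ERY (limma adjusted p = 0.0386). Lone peaks of 3.03 and 3.31 were present in iMK replicate 1 and NEU replicate 1. A second element of the gene, chr1:87638033-87638189, went from 8.04 and 9.31 in MEP to 70 and 52.2 in CFUE and 77.7 and 63.1 in ERY.

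Other rises of similar size were at elements in Pkp1 (plakophilin 1, a desmosome protein) and Eef1d (a subunit of translation elongation factor 1). In Pkp1, chr1:135895213-135895677 scored 3.7 and 3.05 in MEP, 89.3 and 80.1 in CFUE and 52.2 and 53.3 in ERY. ERY was lower than CFUE there by 0.70 ± 0.17 on the log2 scale (limma adjusted p = 0.00221). In Eef1d, chr15:75900019-75900221 in a coding exon scored 11 and 9.89 in MEP, 164 and 136.6 in CFUE and 141.7 and 121.8 in ERY. The element in Pkp1 had a lone peak of 3.15 in CFUMK replicate 1 and none in the lines, and that in Eef1d had none in the other primary populations and 10.8 and 11.6 in G1E-ER4+E2.

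The largest falls were at Tmigd3 and Foxn2, a forkhead factor gene. In Tmigd3, chr3:105914506-105914740 scored 12.8 and 16.7 in MEP, 3.38 and 2.92 in CFUE and 3.84 and 4.36 in ERY, a difference of -2.25 ± 0.25 from MEP to CFUE (limma adjusted p = 2.49e-10). It stood at 48.3 and 49 in the G1E libraries, whereas G1E-ER4+E2 had no peak in replicate 1 and 5.82 in replicate 2. In Foxn2, chr17:88459613-88459801 scored 15.7 and 22 in MEP, 6.88 and 4.52 in CFUE, 4.77 and 6.48 in ERY and 33.5 and 36.9 in G1E, with no peak in G1E-ER4+E2. At both loci the scores of the GATA1-deficient line were high where the rescued line had little or none. This was not general among the 98 elements that fell, since 6 of them were called in G1E only and 18 in G1E-ER4+E2 only.

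From CFUE to ERY the strongest rise was in Cct7, a subunit of the cytosolic chaperonin, where chr6:85452970-85453251 scored 10.9 and 12.4 in MEP, 14.4 and 16.9 in CFUE and 51 and 55.3 in ERY. MEP and CFUE lay close together there and ERY apart, and the difference from CFUE to ERY was 1.68 ± 0.18 (log2, SE, limma adjusted p = 1.83e-08). Tmcc2 rose in both steps, from 12.6 and 11.9 through 31.8 and 31.2 to 96.7 and 100.1, as did an element 17.5 kb from the start of Gnl1, from 7.51 and 6.84 through 26.2 and 29.7 to 77 and 79.5. Opposite to these, an element in Orc5, a subunit of the origin recognition complex, fell from 19.3 and 14.9 in CFUE to 6.05 and 7.14 in ERY (-1.27 ± 0.22, limma adjusted p = 5.53e-05). In Slc7a1, the transporter of cationic amino acids, scores were 13 and 17.3 in MEP, 33.2 and 26 in CFUE and 12.3 and 14.3 in ERY, so that the element was highest in CFUE.

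Genes known for erythroid functions had such elements often. Of 137 genes in 7 erythroid lists that were found in the annotation, 37 (27.0%) had an element in the gene body or 50 kb on either side, against 1972 of 21911 protein-coding genes (9.0%) and 9 of 111 genes (8.11%) in 6 lists of other blood cells. The lists were drawn up with earlier results of these data known, and near genes of the erythroid lists there may be more open elements of any kind. Of the elements called in MEP, CFUE and ERY near each group, those of the 3 populations only made up 3.91% for the erythroid lists, 2.97% for other blood cells and 2.60% for all genes. The red cell membrane list had the most among the erythroid lists, with 15 of 30 genes and 7.30% of 233 open elements, while the list of mast cells, basophils and eosinophils had 11.1% of only 27. Heme synthesis and breakdown followed with 6 of 20 genes, red cell maturation with 7 of 25, erythropoietin signalling with 4 of 19, erythroid transcription factors with 3 of 20, and iron uptake and storage with 2 of 15. None of the 8 globin and globin chaperone genes matched had one. The 42 elements at the 37 genes included 35 that rose from MEP to CFUE, 2 that fell and 5 that did not pass. Their median was 0.89, against 0.51 for the 906. Of the 906 elements 50.3% rose and 10.8% fell, and of all elements fitted 41.7% and 32.4%. From CFUE to ERY 11 of the 42 rose and 2 fell, against 10.5% and 10.2% of the 906 and 14.3% and 9.96% of all. The shares from MEP to CFUE are also the background of the counts for single lists below.

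**Figure D3:**
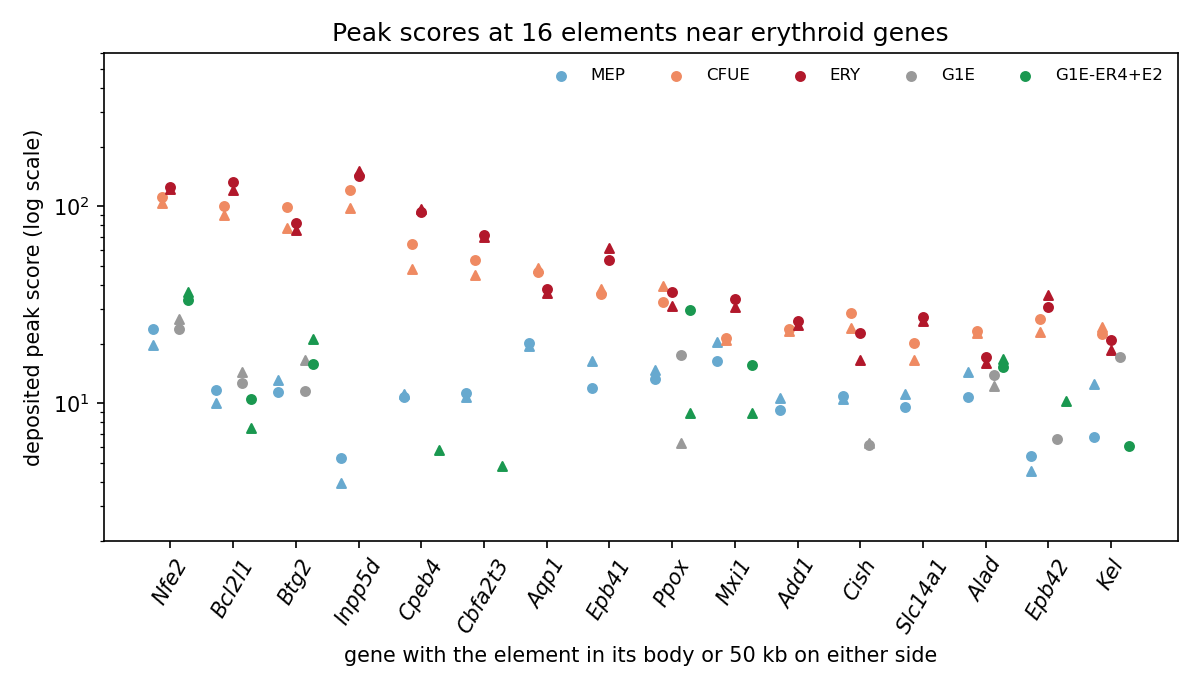
Deposited peak scores on a log axis at the best scoring element of 16 genes of the erythroid lists that are the nearest gene to it, ordered from left to right by mean score (circles for replicate 1, triangles for replicate 2, no symbol where a library had no peak). MEP (blue) lies below CFUE and ERY (orange and red) at all 16 genes, at Mxi1 by the least (20.4 in MEP replicate 2 and 21 in CFUE replicate 2), and line scores (grey and green) are present at some genes only.

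Among transcription factor genes the element at the start of Nfe2 scored highest. Nfe2 encodes the p45 subunit of NF-E2, which acts in erythroid cells and megakaryocytes. Its element at chr15:103251668-103251878, 0.09 kb from an annotated start, scored 23.8 and 19.8 in MEP, 111.4 and 104.4 in CFUE and 125.3 and 122.3 in ERY, with 23.7 and 26.7 in G1E and 33.5 and 36.6 in G1E-ER4+E2. MEP lay below all CFUE and ERY libraries, the difference from MEP to CFUE being 1.92 ± 0.13 (log2, SE, limma adjusted p = 2.08e-16), and no library of the 7 other populations had a peak. Cbfa2t3 encodes ETO2, a corepressor in TAL1 complexes. Its intronic element with 3 GATA motifs rose from 11.3 and 10.8 in MEP through 53.2 and 44.6 in CFUE to 71.3 and 70.2 in ERY, and passed the test in both steps. Mxi1, an antagonist of MYC, was the exception in this group, with 16.3 and 20.4 in MEP, 21.5 and 21 in CFUE and 33.7 and 30.7 in ERY. Its change from MEP to CFUE, -0.13 ± 0.17 after centring, did not pass (limma adjusted p = 0.512), whereas that from CFUE to ERY did (0.55 ± 0.17, limma adjusted p = 0.0179).

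All 5 elements of the erythropoietin signalling list rose from MEP to CFUE. Bcl2l1 encodes BCL-XL, which protects erythroblasts from apoptosis. Its element, 17.1 kb downstream of a start and inside the gene, scored 11.7 and 10 in MEP, 100.7 and 90.6 in CFUE and 132.2 and 120.4 in ERY, and 7.53 to 14.5 in the 4 line libraries. MEP lay far below CFUE and ERY without overlap, and the difference from MEP to CFUE was 2.69 ± 0.14 (log2, SE, limma adjusted p = 1.10e-19). Jak2, the kinase bound to the erythropoietin receptor, had an intronic element that scored 5.18 and 4.65 in MEP, 14.4 and 16.3 in CFUE and 19.6 and 19.7 in ERY. At Cish, a feedback inhibitor of STAT5 signalling, the element rose from 10.9 and 10.5 in MEP to 28.8 and 24.2 in CFUE and stood at 22.8 and 16.5 in ERY, with 6.14 and 6.28 in G1E and no peak in G1E-ER4+E2.

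Of the 8 elements of heme genes, 7 rose from MEP to CFUE and 1 did not pass. Alas2, the first and rate-limiting enzyme of erythroid heme synthesis, had 2 of them, 132 bp apart and about 31 kb upstream of its start. The first, chrX:150515861-150516321, scored 5.18 and 5.53 in MEP, 35.4 and 24.6 in CFUE and 15.8 and 22.6 in ERY, with no peak in G1E and 12.5 and 8.22 in G1E-ER4+E2. It was highest in CFUE and present in the line with GATA1 and absent from the line without. The second, chrX:150516454-150517102, scored 2.75 and 4.36 in MEP, 11.7 and 10.8 in CFUE and 15.8 and 15.7 in ERY. Ppox, a late enzyme of the pathway, had an element over its start with 13.3 and 14.8 in MEP, 32.5 and 39.4 in CFUE and 36.6 and 31.3 in ERY.

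In the red cell membrane list 13 of 17 elements rose from MEP to CFUE, 1 fell and 3 did not pass. Epb42 encodes protein 4.2, which links band 3 to the skeleton. Its element 0.26 kb upstream of the start scored 5.39 and 4.51 in MEP, 26.7 and 23 in CFUE and 30.8 and 35.4 in ERY, a difference of 1.78 ± 0.19 from MEP to CFUE (limma adjusted p = 1.70e-10). Epb41, which encodes protein 4.1, had 12 and 16.4 in MEP, 35.9 and 38 in CFUE and 53.5 and 61.7 in ERY at an intronic element, and no peak in the lines. At Aqp1, the water channel whose element holds no GATA motif, scores were 20.3 and 19.5, 46.4 and 48.5, and 38.1 and 36.4 in the same order. At all 3 genes MEP lay below CFUE and ERY without overlap. Mpp1 (a membrane palmitoylated protein) was highest in CFUE, with 4.87 and 6.25, then 35.4 and 23.1, then 16.9 and 17.8. The element that fell was in Car1, carbonic anhydrase 1, with 6.13 and 8.14 in MEP, 5.75 and 5.05 in CFUE and 4.53 and 3.97 in ERY (-0.67 ± 0.25 from MEP to CFUE, limma adjusted p = 0.0162). Elements were also counted for Add1, Kel, Add2, Piezo1, Icam4, Sptb, Tspo2 and Slc14a1, among others.

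All 7 elements of the red cell maturation list rose from MEP to CFUE. Btg2, an antiproliferative gene, had 11.4 and 13.2 in MEP, 99.7 and 77.3 in CFUE and 82.4 and 76.2 in ERY at the element shown above. Cpeb4, a translational repressor induced in erythroblasts, rose in both steps, from 10.8 and 11.1 through 64.4 and 47.9 to 93.7 and 96.5. Bpgm, the enzyme that makes the oxygen affinity regulator of red cells, also rose in both, from 6.77 and 7.42 through 16.5 and 16.6 to 24.9 and 34.2. The other genes with an element were Pklr, Ulk1, Eif2ak1 and Fbxo7. In the iron list the element near Glrx5, a gene for the assembly of iron-sulfur clusters, fell from MEP to CFUE and rose from CFUE to ERY, with 15 and 16.1, 13 and 12.7, and 24.2 and 20.2.

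Genes of other blood lineages had elements about as often as genes in general, with 8.11% of the 6 lists together against 9.0%, and single lists hold too few genes to set apart. The megakaryocyte list had Nbeal2 and Mef2c among 26 genes, the granulocyte list Fcnb among 20, the monocyte list Ccr2 among 18, the stem and progenitor list Myb and Ly6a among 18, the B, T and NK cell list Lck among 19, and the list of mast cells, basophils and eosinophils Prg2 and Ccr3 among 11. Of 18 genes of other tissues, Tnnt2 and Sftpc had one nearby. The element named for Nbeal2 lies 45.6 kb from its start in an intron of another gene, Ccdc12, and scored 6.77 and 4.51 in MEP, 23.5 and 27.2 in CFUE and 44.8 and 51.2 in ERY. That of Mef2c was low throughout, between 3.31 and 6.11.

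The protein-coding gene nearest to the most elements was Map3k1, a kinase upstream of JNK, with 5 elements 86.3 to 238 kb upstream of its start and none closer. All 5 rose from MEP to CFUE. The strongest in CFUE was chr13:111939141-111939297, with 8.57 and 8 in MEP, 47.5 and 46.5 in CFUE and 34.8 and 42.3 in ERY. That farthest away, chr13:112046878-112047141, scored 5.29 and 4.36, 43.7 and 34.4, and 31.2 and 32.7. The 3 elements nearest to Atp2b4, the plasma membrane calcium pump of red cells, rose too, and the first of them, chr1:133798100-133798297, was present in both lines (38.9 and 43.2 in G1E, 10.2 and 9.93 in G1E-ER4+E2). Mbnl1, Mfsd1, Rpia, Man1a, Pik3cg and Ampd3 were each nearest to 3 elements. Most elements were single, however, with 681 having no other within 50 kb, and the rest formed 91 pairs, 13 triples and 1 cluster of 4.

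The elements with the highest mean score were at 4930404N11Rik and Mst1, the gene of macrophage stimulating protein. At Mst1, chr9:108080246-108080464 lies 0.08 kb upstream of the start and scored 13.4 and 11.9 in MEP, 169.4 and 137.2 in CFUE and 187.6 and 183.1 in ERY, with 38 and 35.7 in G1E and 53.8 and 71.2 in G1E-ER4+E2. The others among the 10 highest were at Arrdc2, Nfe2, Eef1d, Naaladl1, Reep6, Mark3, Bcl2l1 and Rab30. At 4930404N11Rik, scores were 36.6 and 34.5 in MEP, 174.5 and 144.1 in CFUE and 192.6 and 202.3 in ERY. It also had a lone peak of 27 in CFUMK replicate 2.

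Calls in the lines without GATA1 (G1E) and with the GATA1 fusion (G1E-ER4+E2) had no part in the selection. G1E was called at 135 of the 906 elements (14.9%, 95% exact binomial interval 12.6 to 17.4), close to the 12.7% of all primary elements. G1E-ER4+E2 was called at 256 (28.3%, 25.3 to 31.3), against 15.6% of all primary elements. Of the 906 elements, 93 were called in both lines, 42 in G1E only, 163 in G1E-ER4+E2 only and 608 in neither. Intervals cover counting error only, and elements are not replicates.

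By library, peaks were present at 18.4% and 19.8% of the elements in G1E and at 32.1% and 37.9% in G1E-ER4+E2, against 14.1%, 15.8%, 17.4% and 19.2% of all primary elements. Both libraries of the rescued line stood above both of the other line, by 15.9 percentage points (19.1% ± 0.94 against 35.0% ± 4.06, SD, n = 2 libraries). The exact permutation test (two-sided) gave p = 0.333, the smallest that 2 against 2 allows. The line libraries had relative depths of 22.3% to 27.0% of the deepest library, lower in G1E than in G1E-ER4+E2, and their lists were shorter in G1E. With all 4 lists cut to the length of the shortest, 13.6% of the elements were called in G1E and 23.6% in G1E-ER4+E2, against 12.3% and 13.4% of all primary elements.

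Compared with other sets, the 906 elements were called in the lines more often than those of CFUE and ERY only (7.33% in G1E and 14.3% in G1E-ER4+E2) or of MEP only (6.85% and 7.94%). They were called less often than elements of MEP, CFUE, ERY and CFUMK only (24.9% and 39.9%) and than all elements shared with further populations (54.3% and 68.8%). These differences were not tested. Score moved with the line calls. Of the 227 elements with the lowest mean scores 6.61% were called in G1E and 13.2% in G1E-ER4+E2, and of the 227 with the highest 24.7% and 44.5%. In CFUE replicate 1 the median score was 22.1 for elements called in both lines, 19.2 for G1E-ER4+E2 only, 16.15 for G1E only and 12.6 for neither.

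The 18 erythroid list elements called in G1E-ER4+E2 (42.9% of 42) outnumbered the 11 called in G1E (26.2%), and 20 were called in neither. In the same order, 28.3% and 14.9% of the 906 were called, and 15.6% and 12.7% of all primary elements. The 227 elements with the highest mean scores reached 44.5% and 24.7%. The part of the score in the calls near these genes was not tested. These shares are also the background of the counts for single lists that follow. Elements near heme genes were called in G1E-ER4+E2 in 5 of 8 cases and in G1E in 3 of 8. Those near membrane genes were called in 6 and 4 of 17 cases. Erythropoietin signalling had 1 of 5 in G1E-ER4+E2 and 2 of 5 in G1E. Inpp5d, Cpeb4, Cbfa2t3, Epb41 and Jak2 were called in neither line, although their scores in CFUE and ERY were among the higher ones for the first 4.

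GATA motifs were frequent in the set. In the 200 bp about the centre, 511 of 906 elements (56.4%, exact interval 53.1 to 59.7) held a motif, against 31.6% of all primary elements. Among the 636 elements over 1 kb from a transcript start the share was 61.0%, against 34.8%. The set was not the richest, since 66.6% of such elements of MEP only and 78.8% of those of MEP and CFUMK only held the motif, while those of CFUE and ERY only reached 40.7% and elements shared with further populations 42.7%. At least 2 motifs were present in 19.9% of the 906 and in 8.11% of all primary elements. Here too the share was higher for MEP only (27.8%) and MEP and CFUMK only (37.5%), and lower for CFUE and ERY only (7.68%). The motifs gathered at the centre. In 20 bp bins the number of motifs, as a percent of the number of distal elements, was 13.7% just left of the centre. It lay between 3.14% and 5.66% in all bins from 140 to 300 bp to the right.

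**Figure D4:**
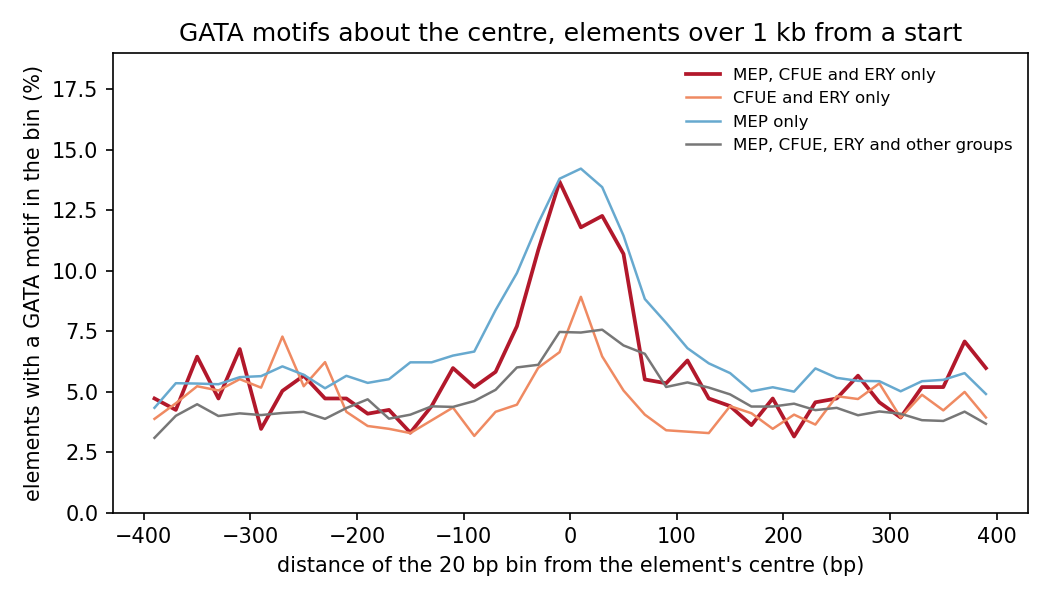
Number of GATA motifs in each 20 bp bin, as a percent of the number of elements over 1 kb from a transcript start, by distance of the bin from the element's centre. The axis names this a percent of elements, but an element with several motifs in a bin is counted for each of them. The elements of MEP, CFUE and ERY only (red) peak at 13.7 near 0, close to MEP only (blue, 14.2) and above CFUE and ERY only (orange, 8.92) and shared elements (grey, 7.56).

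The composite of an E-box and a GATA motif (CTG, then 7 to 9 bases of any kind, then AGATAA or TGATAA, which overlaps the GATA motif) was found in 10.0% of the 906 elements and 3.14% of all primary elements. The KLF/SP motif CCNCNCCC was found in 27.8%, against 25.3%. Away from starts these shares were 29.2% and 21.4%, and 31.7% for CFUE and ERY only. Rarer than over all primary elements were the PU.1 motif GAGGAAGT (0.55% against 6.44%), the RUNX motif TGTGGTT (3.75% against 8.50%) and the CTCF motif (0.77% against 5.69%). This was not particular to the set. In the same order the shares were 1.27%, 3.84% and 1.27% for CFUE and ERY only, and 0.79%, 5.72% and 1.40% for MEP only. The AP-1 motif TGANTCA did not stand apart, at 8.39% against 8.27%. No element held the CEBP motif TTGCGCAA, which 0.127% of all primary elements did, and the exact interval for the 906 reaches 0.406%. All motifs were searched on both strands, and a match is no evidence of binding.

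**Figure D5:**
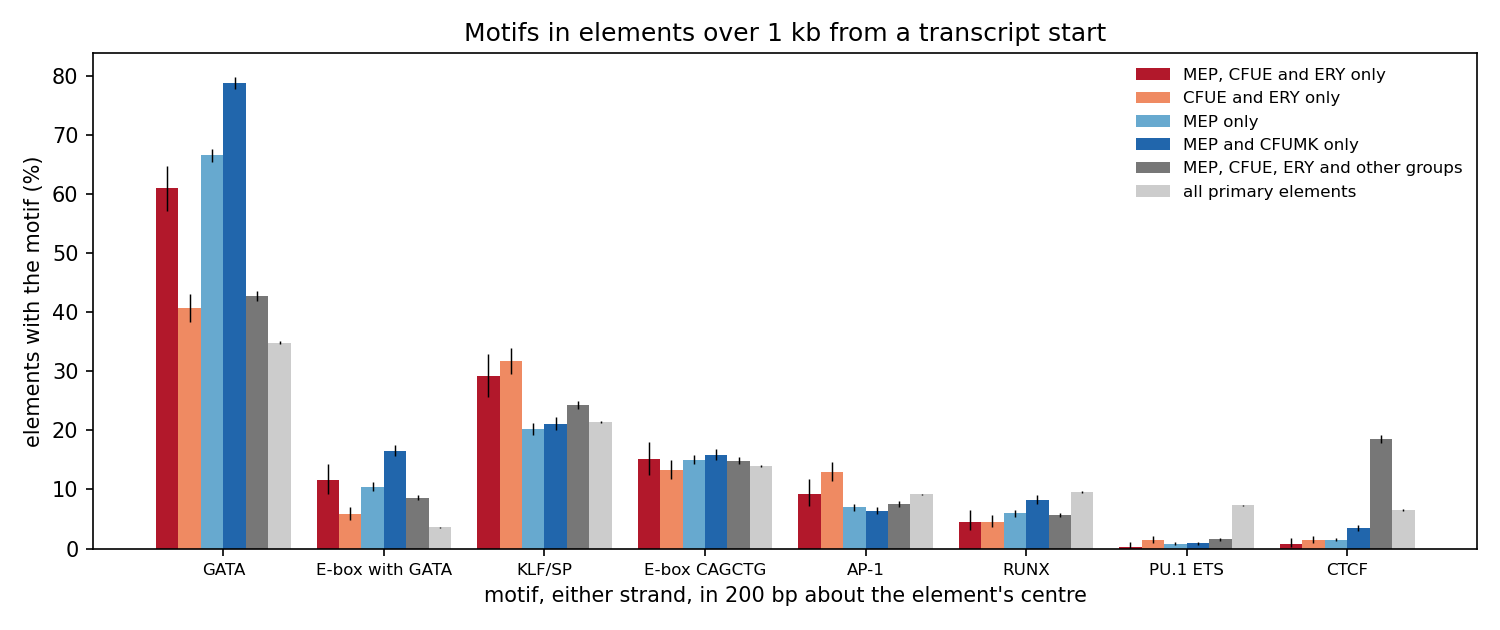
Percent of elements over 1 kb from a transcript start that hold each of 8 motifs in 200 bp about the centre, for 6 sets of elements, with exact 95% binomial intervals that cover counting error only. The elements of MEP, CFUE and ERY only (red) lie at 61.0% for GATA, between CFUE and ERY only (40.7%) and MEP only (66.6%), and at 29.2% for KLF/SP.

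Motifs differed little with the line calls for GATA and more for KLF/SP. GATA motifs were present in 59.1% of the 93 elements called in both lines, 57.1% of the 42 in G1E only, 58.9% of the 163 in G1E-ER4+E2 only and 55.3% of the 608 in neither. KLF/SP motifs were present in 39.8% (exact interval 29.8 to 50.5), 21.4% (10.3 to 36.8), 38.0% (30.6 to 46.0) and 23.7% (20.4 to 27.3). The KLF/SP share also moved with the score, from 21.6% of the 227 lowest to 37.9% of the 227 highest elements, and the part of the score in this was not tested. Elements that fell from CFUE to ERY held it in 41.3% of 92 cases, and those that rose in 21.1% of 95. The difference was not tested.

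By position, 29.8% of the elements lay within 1 kb of a transcript start, against 23.0% of all primary elements and 54.7% of those shared with further populations. Introns held 55.6% (45.9% of all primary elements) and 32.8% were intergenic (44.3%). Coding exons held 6.84% and UTRs 4.75%. The median width was 240 bp, against 247 bp for all primary elements and 367 bp for shared ones. The genes nearest to the elements were 793, and promoters of 587 of these (74.0%) were called in all 10 primary populations, against 42.0% of all protein-coding genes. This was not particular to the set, since the share was 72.8% for the genes nearest to elements of CFUE and ERY only. A promoter called in MEP, CFUE and ERY alone was found for 7 of the 793, and for 10 of all genes. The selection used the same calls, so these counts follow largely from it and are not read as a result. Most of the nearest genes therefore had promoters open in every population.

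Many elements adjoined another. Within 500 bp of 620 of the 906 (68.4%) lay another primary element, compared with 42.7% of all primary elements, and for 363 of the 620 the nearest one was called in MEP, CFUE, ERY and at least 1 other population, among them 139 with a neighbour called in all 10. At these sites the call concerned an additional interval beside a shared one, and not the opening of the whole site. The 286 elements with no neighbour within 500 bp held a GATA motif in 70.6% of cases, lay within 1 kb of a transcript start in 11.9%, and were called in G1E in 13.6% and in G1E-ER4+E2 in 30.8%. Of these, 139 rose from MEP to CFUE and 41 fell.

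As a check of the populations, promoters of 10 erythroid marker genes were called in all CFUE and ERY libraries, and 9 in both MEP libraries, where the promoter of Alas2 had no peak. That promoter was also without a peak in G1E and had one in both G1E-ER4+E2 libraries. The markers do not set MEP apart, since 9 were also called in both CFUMK libraries and CMP replicate 1. Of 4 megakaryocyte markers, 2 were called in MEP, 1 to 2 in CFUE and 1 in ERY, against 2 to 3 in iMK, 3 in CFUMK and 4 in LSK. Of 5 neutrophil and monocyte markers, 1 to 2 were called in MEP and 0 to 1 in CFUE and ERY. In MON and NEU 2 to 3 of the latter were called, in CMP 4 to 5 and in CFUMK 4. These calls therefore do not set the megakaryocytic or the innate populations apart. Of 3 stem cell markers all were called in MEP and 1 in CFUE and ERY. Lists held 52720 to 230877 peaks, and relative depths of the primary libraries were between 40.2% and 100%.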

How the data were processed

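ATAC-seq peak lists of 24 libraries were analysed. Per the labels and the study's methods, the authors trimmed the reads, mapped to mm10 (Bowtie 0.12.8, with SAMtools 1.6 and bedtools), discarded mitochondrial reads and those on unplaced chromosomes, and called peaks of at most 150 bp with HOMER in each library by itself. The peak score is a deposited number without a name or stated unit, and a second deposited score is a whole number. In every library at least 97.2% of scores under 10 lay within 0.0051 of a whole multiple of that library's step. Relative depth is the smallest step divided by that of the library. No artefact regions were removed.

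Groups followed the labels, and replicate numbers follow accession order only. Elements were built as described in the results. Scores, as log2(highest value + 1), were centred on each library's median over the fitted elements. They were fitted with limma 3.58.1 (trend and robust variance) in R 4.3.3, with Benjamini-Hochberg adjustment over 29071 elements. The p-values rest mostly on the spread shared by all fitted elements (median prior degrees of freedom 35.8, residual 3), and less on an element's own libraries. In simulated CFUE minus MEP data for 29071 elements, 90% and 76% of changes of 1 and -1 (log2) and 100% of those of 2 and -2 were found, with 16 false calls. Other steps used Python 3.11.15 and scipy 1.17.1. Genes and 141730 transcript starts came from GENCODE vM21, and sequence from RefSeq GRCm38.p6.

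Some genes of the lists are counted but not reported here by name. Members, gene lists and tests were chosen with earlier results of these data known. Named were up to 30 genes of the erythroid lists, the 10 highest scoring elements, the 10 genes nearest to most elements, the 6 largest rises and falls of each contrast (a selection of these is described), and up to 3 genes of each other list. Alternatives tried were stricter exclusion, overlap of 75 bp, equal peak numbers, merging gap, other windows and distances, and other scalings. Further ones were the run of library numbers as a term, limma with neither trend nor robust variance, and leaving out each library. Added after seeing the data were the second score, distal elements alone and elements without neighbours.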

Additional observations from a re-analysis of the deposited data

How the results depend on the processing

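The size of the set depended on how a call was defined. It was 280 with no peak allowed in any library of the other populations, 2099 when every primary list was cut to the shortest (84341 peaks), and 286 with no neighbour within 500 bp (chosen after seeing the data). Leaving out each primary library in turn gave 595 (without CFUMK replicate 1) to 1421 elements (without MEP replicate 1).

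The share with a GATA motif was 65.7% with strict exclusion, 70.6% without neighbours, 40.2% in a window of 100 bp and 65.3% over the whole element, against 18.5% and 39.4% of all primary elements in the latter 2, and 50.3% to 58.9% over the left-out libraries. The share within 1 kb of a start was 18.9% with strict exclusion, 33.0% with a reproducible overlap of 75 bp, 11.9% without neighbours, 18.9% at 500 bp and 42.2% at 2 kb (16.8% and 30.6% of all primary elements), and 26.3% to 32.8% over the left-out libraries. G1E was called at 15.9% with the 75 bp overlap between libraries, 20.4% with equal peak numbers, 13.6% without neighbours, 13.7% with 75 bp overlap of the line peak and 13.6% with equal line lists. G1E-ER4+E2 was called at 35.7% with equal peak numbers and 23.6% with equal line lists. Over left-out libraries the 2 shares ranged from 13.1% to 19.8% and from 25.1% to 37.9%. The difference between the lines stayed positive in all settings run, was smallest at 10.6 percentage points with equal line lists, and lay between 13.02 and 18.8 percentage points over left-out libraries.

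Genes with an element numbered 1169 at 20 kb, 3111 at 100 kb and 793 by nearest start. From MEP to CFUE, the number that fell was 24 with quantile normalization, 29 without centring and 44 without the lowest scoring elements (21803 fitted). Over distal elements alone (added after seeing the data) 18 fell and 423 rose, against 3899 and 5315 of all 13385. From MEP to ERY the number that fell was 35, 47, 46 and 45 in the same order. From CFUE to ERY, 41 rose and 39 fell with quantile normalization, 25 and 14 with the mean peak value, and 45 and 127 over distal elements. Over the left-out libraries, 410 to 453 rose and 59 to 92 fell from MEP to CFUE, 48 to 103 rose and 40 to 104 fell from CFUE to ERY, and 399 to 455 rose and 78 to 116 fell from MEP to ERY. The libraries that moved a count by over 1.5 times were MEP replicate 2 (59 fell from MEP to CFUE), CFUE replicate 1 (61 fell from MEP to CFUE) and each of the CFUE and ERY libraries from CFUE to ERY, a group left with 1 library being assumed to vary like the others. The median from CFUE to ERY turned from -0.04 to 0.0029 without CFUE replicate 2, and over the left-out libraries it ranged from -0.091 to 0.0029. The causes were not tested. Replicate numbers follow accession order and pair nothing. With the run of library numbers (MEP, CFUE and ERY in each of 2 runs) as a term, 458 rose and 100 fell from MEP to CFUE, 100 and 100 from CFUE to ERY, and 455 and 109 from MEP to ERY. Shallower line libraries limit what their missing peaks can show.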
